A study of Mus musculus with 11 samples.

Results

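The subject of this section is the set of genes whose transcripts were less abundant in HaCa4 cancer cells after co-culture with lymphatic endothelial cells (LECs) than in HaCa4 cells grown alone. HaCa4 is a line from mouse skin squamous carcinoma that carries an oncogenic H-Ras mutation, in controls and co-cultured cells alike, and stems from tumours promoted with the phorbol ester TPA. It was represented by HaCa4 control (single culture, n = 2) and HaCa4-sorted (isolated by FACS after 24 h with LECs, n = 3). The LEC line, imLEC, comes from the immortomouse, and its 6 libraries entered only to tell which genes were listed for both lines. A gene belonged to the set when its TPM in each of the 3 sorted libraries lay below both controls, when it was not among the genes listed for LECs, and when it was not *Krt6b*, *Dsg3*, *Itga2*, *Spp1*, *Mmp13*, *Tslp*, *Cx3cl1*, or *Acsbg1*. Of the 290 genes listed for HaCa4, 97 were lower in every sorted library (33.4%), 9 of these were also listed for LECs and 7 more were left out by name, and 81 remained. Genes are called listed when the deposit gives a TPM for them, and the level of any other gene is not known here.

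TPM gives a gene's share of all transcripts in a library after correction for length, so a lower TPM can stand for fewer transcripts of that gene or for more transcripts of others. In bulk samples, fewer cells of a type and less RNA per cell cannot be told apart. The methods describe the dye CFSE and the sorting for the co-cultured cells, whereas the handling of HaCa4 control is not given in the sources used here. Co-culture, dye, and sorting therefore cannot be told apart. HaCa4 is a single cell line, and nothing in the labels says whether the libraries came from separate cultures. Because the set was chosen on the contrast between HaCa4-sorted and HaCa4 control, the differences below are given as a description, with the replicate spread. No p-value of a gene is printed. P-values enter only through cut-offs, and the rule favours passing them.

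Squamous carcinoma cells with active RAS signal through the MAPK cascade to transcription factors of the AP-1 family, which act on promoters of growth factors and matrix proteases. The cascade is held in check by phosphatases that it induces itself. Keratinocyte-derived tumour cells also carry strong detoxification and antioxidant programmes, in which the transcription factor NRF2 (encoded by *Nfe2l2*) has a central place. Some genes of these systems are found among the 81 genes, but none that encodes an AP-1 factor.

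The 81 genes covered a wide range of abundance, with control means from 0.89 TPM (*Mmp9*) to 3092 TPM (*Aldh3a1*) and a median of 39.96 TPM. No gene of the set was listed at 0 in any HaCa4 library. The most abundant after *Aldh3a1* were *Tmsb4x*, *Hras*, and *Ctsl*, and the control mean lay under 10 TPM in 12 genes. The sorted mean was lower than the control mean by a median of 38.1%, from 16.6% in *Pls3* to 81.1% in *Tnip3*, and in 14 genes it was lower by at least 50%. On the scale of log2(TPM + 1), the differences ran from -1.45 to -0.26 with a median of -0.61, where the median over all 290 listed genes was 0.74. The thresholds used with limma were a log2 fold change of 0.5 or more in size and a Benjamini-Hochberg adjusted p no higher than 0.05. They were passed by 32 of the 81 genes, and by 14.1% of all listed genes in the lower direction and 30% in either, but the rule that chose the set fixes a higher share and nothing is read from it. Nor are the listed genes a neutral background, since 183 of them were higher and 97 lower in every sorted library. The count of 32 depended on single libraries, being 1 without control replicate 1, 0 without control replicate 2 or without sorted replicate 3, and 0 when limma was fitted without the mean-variance trend. In limma without sorted replicate 3, 54 members had a lower mean and an unadjusted p under 0.05. Over all 290 listed genes, 67 did. Without the trend the numbers were 55 and 67. The rule favours such counts too, and nothing is read from them. Scaling the libraries to an equal sum of listed genes took the median of all listed genes from 0.74 to 0.89 and that of the set to -0.41, and left 8 of the 81 past the thresholds and 54 within the rule. Among the genes described below that no longer met the rule at that scaling were *Aldh3a1*, *Ctsl*, *Dusp6*, *Megf10*, *Nuak2*, *Phc2*, *Pls3*, *Slc41a2*, *Sox15*, and *2200002D01Rik*, although all 81 kept a negative log2 fold change. Scaling to an equal median instead left 77 of the 81 past the thresholds. Neither scaling is neutral. The 81 genes made up 1.29% of the total TPM in control replicate 1, where all listed genes made up 2.28%. An equal sum therefore takes out part of their own difference. The median listed gene was at 4.8 and 4.1 TPM in control and 6.3, 8.8, and 9.4 TPM in HaCa4-sorted, so an equal median adds to the difference. The rule requires the highest sorted library to lie below the lower control. In 55 of the 81 genes the distance between these 2 was larger than the whole range of the sorted libraries. In 50 it was larger than the range of the controls as well. Since the rule chose on this distance, the counts are a description only.

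**Figure D1:**
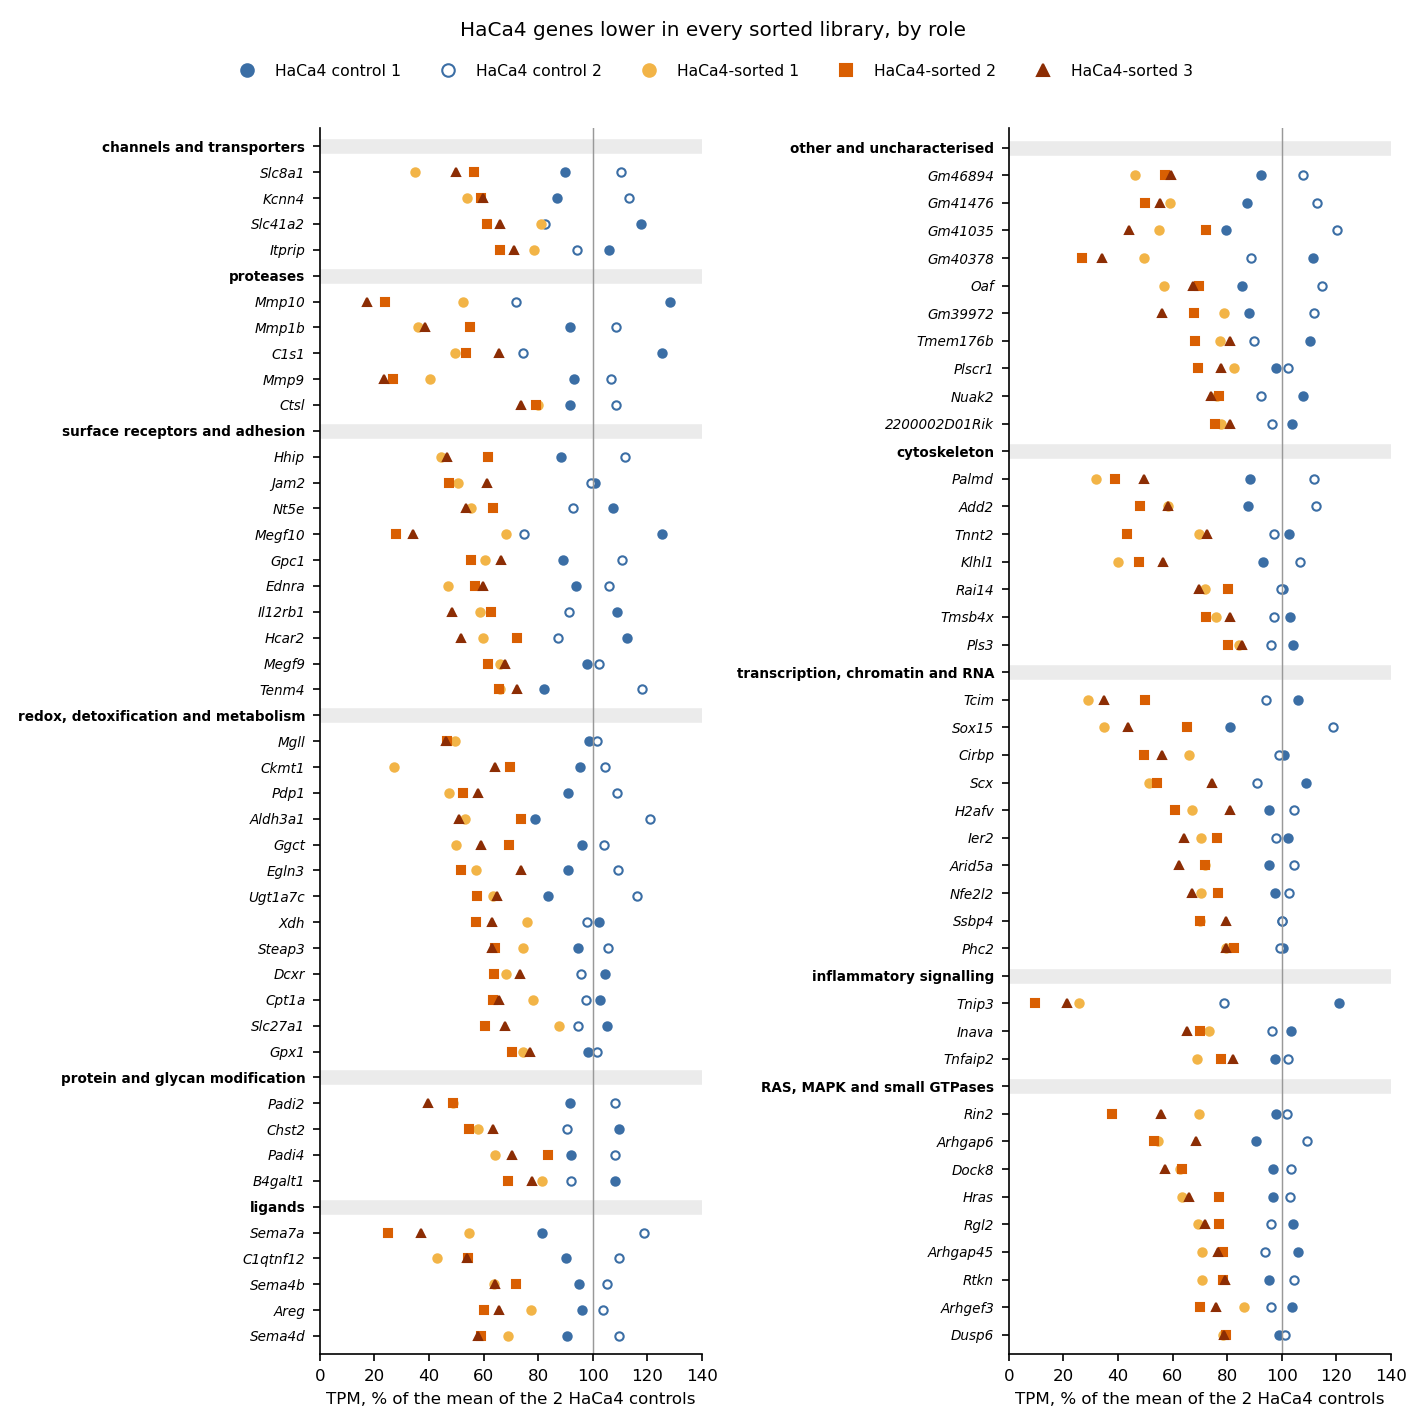
TPM of the genes of the set, with 1 of the 81 not shown, in the 5 HaCa4 libraries, as percent of the mean of the 2 controls (x axis), with genes grouped by role (y axis). Blue circles are controls and orange to brown symbols are sorted replicates, and in every gene shown the 3 sorted symbols lie left of both controls, by the rule that chose the genes.

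The genes of the set were lower to a like extent in each sorted library, and the rule, which asked for lower values in all 3, favours this. The median gene stood at 63.6% of its control mean in sorted replicate 1, 62.6% in replicate 2, and 64.3% in replicate 3. Together the 81 genes made up 1.29% and 1.46% of the total TPM in control, but 0.92%, 0.99%, and 0.93% in HaCa4-sorted. Sorted replicate 1 was the lowest of the 3 in 28 genes, replicate 2 in 33, and replicate 3 in 20, and each replicate was the highest in 27 genes. Between the controls, 46 of the genes were higher in replicate 2 and 35 in replicate 1.

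Transcripts of genes that mark the partner cell type were more abundant in the sorted libraries. Of 38 endothelial genes in a list written for this purpose, 22 were listed for HaCa4, none of them in the set. Their summed TPM was 15.8 and 10.2 in the controls, and 52.4, 390.2, and 181 in sorted replicates 1 to 3. In the controls 11 and 9 of the 22 were listed at 0, among them the defining endothelial genes *Cdh5* and *Emcn* in both, and in the sorted libraries 0 were. All 22 had higher means in HaCa4-sorted, and 4 of them passed the thresholds. The endothelial sum was far higher in sorted replicate 2 than in replicate 1. The median level of the 81 genes was 62.6% of control in replicate 2 and 63.6% in replicate 1. The rule took only genes that were lower in every sorted library, which favours like medians, so nothing is read from them. The part of the endothelial transcripts in the lower values of the set was not tested. Of the markers of squamous epithelium, only *Krt6b*, *Dsg3*, *Krt8*, *Krt19*, and *Itga2* were listed for HaCa4, so the epithelial identity of the libraries could be checked on these alone. Of these 5, 4 had lower means in HaCa4-sorted, 3 of them past the thresholds, and *Krt19* was higher and past them, with 10.03 and 10.3 TPM in control and 16.6, 18.5, and 29.3 TPM in HaCa4-sorted. *Krt8*, a keratin of simple and transformed epithelia, was at 284 and 380.4 TPM in control and between 205 and 238 TPM in HaCa4-sorted.

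**Figure D2:**
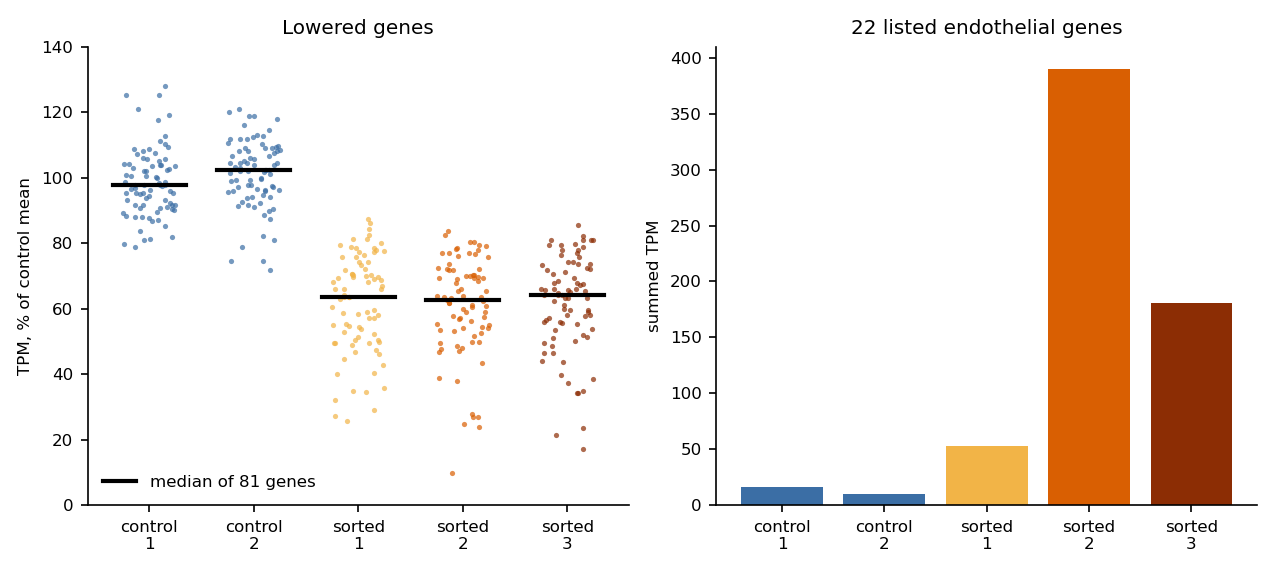
Left, TPM of the 81 genes in each HaCa4 library as percent of the control mean, 1 point per gene, with black bars at the medians. Right, summed TPM of the 22 listed endothelial genes in the same libraries. The medians of the sorted libraries lie between 62.6% and 64.3%, and the rule that chose the genes favours like medians. The endothelial sums of the sorted libraries run from 52.4 to 390.2 TPM.

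The 5 protease genes had sorted means lower by 22.4% to 69.7%. Within this group, the 3 matrix metalloproteases had the largest proportional differences. *Mmp10* encodes stromelysin-2, which degrades several matrix proteins and activates other metalloproteases, and it lies on chromosome 9 from 7502342 to 7510242 of GRCm38.p6. *Mmp10* had 12.2 and 6.84 TPM in control and 4.98, 2.26, and 1.63 TPM in the sorted replicates. It showed the most negative log2 fold change of the set, -1.45, standard error 0.50, but the sorted libraries differed 3.06-fold among themselves, and the controls were also far apart. *Mmp1b*, a paralog of the interstitial collagenase gene, was at 4.65 and 5.50 TPM in HaCa4 control against 1.82, 2.79, and 1.96 TPM in HaCa4-sorted, which left the sorted mean at 43.2% of the control mean. Reads of *Mmp1b* may be shared with its paralog *Mmp1a*, and its exons overlap *Mmp12* on the other strand, so its value is less certain. *Mmp9*, the gelatinase B gene, had control values of 0.83 and 0.95 TPM and sorted values of 0.36, 0.24, and 0.21 TPM. This was a 3.30-fold difference between the means at less than 1 TPM, and the pseudocount reduced it to a log2 fold change of -0.57. *Mmp10* and *Mmp1b* lie 114316 bases apart on chromosome 9, and *Mmp3* and *Mmp13*, which were also lower in every sorted library but are not in the set, lie in the same cluster. The other proteases were more abundant and differed less in proportion. *Ctsl*, the lysosomal cysteine protease cathepsin L, had 1249 and 1475 TPM in control and 1089.5, 1078, and 1004 TPM in the sorted replicates, and *C1s1*, a protease of the complement C1 complex, had 39.1 and 23.2 TPM in HaCa4 control against 15.4, 16.6, and 20.4 TPM in HaCa4-sorted. *C1s1* can share reads with its paralog *C1s2*. Of the 48 genes in the list of proteases, inhibitors, and matrix proteins, 10 were listed for HaCa4, 7 with a lower and 3 with a higher mean in HaCa4-sorted. Of these 10, 2 passed the thresholds as lower, and neither belonged to the set, and 1 passed as higher.

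The promoters of *Mmp10* and *Mmp1b* are shown because both hold the AP-1 motif TGANTCA close to a TATA box (TATAAA), an arrangement known from metalloprotease promoters. The sequences are from RefSeq (GRCm38.p6) and are written 5′ to 3′ on the strand of the gene, from 100 bases before the start. They end before the first annotated exon base, and the motifs are in capitals. The window is chr9:7502242-7502341 (plus strand) for *Mmp10* and chr9:7388048-7388126 (minus strand) for *Mmp1b*. Counted from the start, the AP-1 motif begins at base -63 in *Mmp10* and at base -93 in *Mmp1b*. Over the whole set the AP-1 motif was found in 6.59% of promoter windows, against 7.81% of all promoters.
Mmp10: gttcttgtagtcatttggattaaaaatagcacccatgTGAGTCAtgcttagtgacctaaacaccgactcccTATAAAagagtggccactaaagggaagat
Mmp1b: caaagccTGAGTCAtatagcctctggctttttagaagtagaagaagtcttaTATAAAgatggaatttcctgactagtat

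Genes of RAS and MAPK signalling and of the small GTPases formed a group of 9, with sorted means lower by 21.0% to 45.6%. *Hras* itself (chromosome 7 from 141189934 to 141194019) had control values of 1337 and 1423 TPM and sorted values of 878, 1062, and 910.3 TPM. The sorted mean was 68.8% of the control mean (log2 fold change -0.54, standard error 0.13), and *Hras* was among the 3 most abundant genes of the set in control. It passed the thresholds with all libraries, but not without sorted replicate 1 or 3, without the trend, or at an equal sum of listed genes. At that scaling *Hras* was at 1232 and 1252 in control and 932, 1215, and 926 in HaCa4-sorted. The log2 fold change was then -0.29. TPM per gene does not separate transcripts of the mutant and the normal allele. *Dusp6*, the ERK phosphatase that limits MAPK output, was at 215 and 220.3 TPM in control and 171, 173, and 172 TPM in the sorted replicates. It had the narrowest sorted range of all 81 genes, with a ratio of 1.01 between the highest and the lowest sorted library. This held for TPM as deposited. With the libraries scaled to an equal sum of listed genes, *Dusp6* was at 198 and 194 in control and 182, 198, and 175 in HaCa4-sorted, so that the groups overlapped, and the log2 fold change was -0.09. *Rgl2*, an exchange factor for Ral that binds active RAS, had 36.4 and 33.6 TPM in HaCa4 control against 24.3, 26.95, and 25.1 TPM in HaCa4-sorted. *Rin2*, a RAS-binding exchange factor for RAB5, had control values of 18.4 and 19.2 TPM and sorted values of 13.1, 7.12, and 10.5 TPM, with replicate 2 well below the other sorted libraries. The remaining genes of the group encode regulators and a partner of small GTPases. The exchange factors *Dock8* and *Arhgef3* were lower by 38.8% and 22.6%, the GTPase-activating proteins *Arhgap6* and *Arhgap45* by 41.2% and 24.8%, and *Rtkn* by 23.8%. Of the 32 genes in the list of EGFR ligands and MAPK feedback, only *Dusp6* and *Areg* were listed for HaCa4, both in the set. Of these, 1 (*Areg*) passed the thresholds with all libraries. That call was lost without either control, without sorted replicate 2 or 3, without the trend, and at an equal sum of listed genes. It was also lost with the replicate block that was added after seeing the data.

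**Figure D3:**
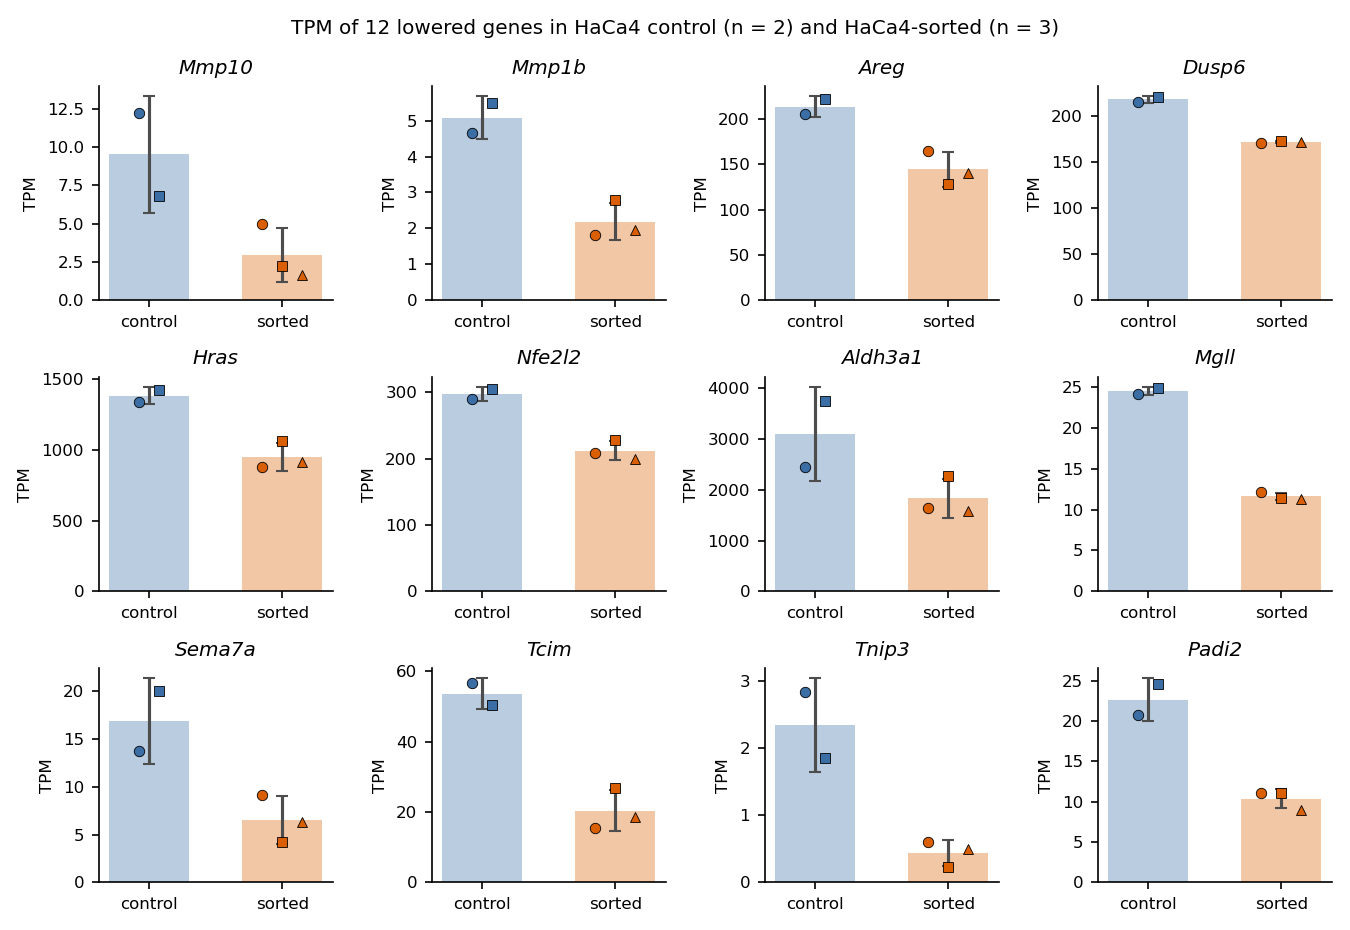
TPM (y axis, from 0) of 12 genes of the set in HaCa4 control (blue, n = 2) and HaCa4-sorted (orange, n = 3). Bars are means, error bars are SD, and circles, squares, and triangles are replicates 1, 2, and 3. The sorted values of *Dusp6* (171 to 173 TPM) and *Mgll* (11.3 to 12.1 TPM) are tight, and those of *Mmp10* (1.63 to 4.98 TPM) are not.

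The set held 5 genes for ligands. *Areg*, on chromosome 5 from 91139599 to 91148432, encodes amphiregulin, a ligand of the EGF receptor by which keratinocytes stimulate their own growth. It had 205 and 222 TPM in control and 165, 128, and 140.2 TPM in the sorted replicates, a sorted mean lower by 32.3%, with sorted replicate 1 nearest to the controls. *Sema7a*, a membrane-anchored semaphorin that signals through integrins, was at 13.7 and 20.1 TPM in HaCa4 control against 9.19, 4.19, and 6.28 TPM in HaCa4-sorted (log2 fold change -1.27, standard error 0.37). Its sorted libraries were among the 3 most widely spread of the set on the scale of log2(TPM + 1), with replicate 2 lowest. The class 4 semaphorins differed less. *Sema4b* had control values of 91.1 and 101 TPM and sorted values of 61.1, 68.9, and 61.7 TPM, and *Sema4d*, the ligand of plexin-B1, was far less abundant, with a control mean of 4.49 TPM and a sorted mean of 2.78 TPM. *C1qtnf12*, which encodes the secreted protein adipolin, had 12.4 and 15.1 TPM in control and 5.87, 7.44, and 7.39 TPM in the sorted replicates.

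Receptors and adhesion proteins of the cell surface made up 10 genes. *Hhip*, a membrane protein that binds Hedgehog ligands and blunts their signal, had 14.3 and 18.1 TPM in HaCa4 control against 7.20, 9.97, and 7.51 TPM in HaCa4-sorted. *Jam2*, a junctional adhesion molecule, had control values of 46.7 and 46.1 TPM and sorted values of 23.4, 21.9, and 28.4 TPM, and its controls were nearly equal (log2 fold change -0.90, standard error 0.16). *Nt5e* encodes CD73, the ectoenzyme that makes adenosine from AMP, and had 52.3 and 45.2 TPM in control and 26.99, 30.9, and 26.1 TPM in the sorted replicates. *Gpc1*, a heparan sulphate proteoglycan, was the most abundant of the group, with 215 and 267 TPM in HaCa4 control against 146, 133, and 159 TPM in HaCa4-sorted. *Ednra*, *Il12rb1*, and *Hcar2*, receptors for endothelin-1, for interleukin-12, and for hydroxybutyrate and niacin, had control means of 4.99, 6.41, and 18.2 TPM. Their sorted means were 2.72, 3.63, and 11.1 TPM. The EGF-repeat proteins *Megf9* and *Megf10* and the teneurin *Tenm4* completed the group. *Megf9* was tight in both groups, with 65.0 and 67.8 TPM in control and 41.0 to 45.0 TPM in HaCa4-sorted. *Megf10* had control values of 3.16 and 1.88 TPM and sorted values of 1.72, 0.70, and 0.86 TPM, so that sorted replicate 1 nearly reached the lower control, and *Tenm4* had a sorted mean lower by 32.0%.

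The promoters of *Areg* and *Hhip* are the 2 of the set that hold the CRE motif TGACGTCA, the binding sequence of CREB and ATF factors, and are shown for that reason. The motif, in capitals, begins at base -61 in *Areg* (chr5:91139499-91139598, plus strand), where a TATA box follows at base -31, and at base -75 in *Hhip* (chr8:80058061-80058108, minus strand). The *Hhip* sequence ends where the annotated gene begins.
Areg: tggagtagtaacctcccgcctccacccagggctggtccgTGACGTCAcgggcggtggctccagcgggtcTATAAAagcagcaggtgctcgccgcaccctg
Hhip: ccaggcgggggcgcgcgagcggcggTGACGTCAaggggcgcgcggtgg

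The largest group, with 13 genes, served redox balance, detoxification, and energy metabolism, with sorted means lower by 26.1% to 52.5%. The groups by role were made with the values known. Of the 55 genes in the list of lipid, sterol, and metabolic enzymes, 3 were listed for HaCa4. Of these 3, 2 had a lower and 1 a higher mean in HaCa4-sorted, and 1 passed the thresholds, as lower. Only *Aldh3a1* of them was in the set, and it did not pass. The antioxidant genes *Nqo1*, *Hmox1*, *Gclm*, *Gclc*, and *Srxn1* are on the same list but were not listed for HaCa4, so they have no value here. *Aldh3a1* oxidises aldehydes formed by lipid peroxidation and was the most abundant gene of the set. It had 2441 and 3743 TPM in control and 1638, 2276, and 1576 TPM in the sorted replicates. The controls lay far apart, sorted replicate 2 came close to control replicate 1, and the groups were close to overlapping (log2 fold change -0.74, standard error 0.25). *Gpx1*, the glutathione peroxidase that removes hydrogen peroxide, was at 361 and 373 TPM in HaCa4 control against 273, 258, and 283 TPM in HaCa4-sorted, and *Ggct*, an enzyme of glutathione breakdown, had control values of 36.5 and 39.5 TPM and sorted values of 18.9, 26.3, and 22.4 TPM. *Ugt1a7c*, which conjugates xenobiotics to glucuronic acid, had a control mean of 40.4 TPM and a sorted mean of 25.1 TPM. It shares exons with other members of the *Ugt1a* cluster, so its level is uncertain. The carbonyl reductase *Dcxr*, the purine-oxidising enzyme *Xdh*, and the ferrireductase *Steap3* were lower by 31.6%, 34.6%, and 32.8%.

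Enzymes of lipid and energy metabolism were part of this group. *Mgll* (chromosome 6 from 88724412 to 88828360) splits monoacylglycerols into fatty acid and glycerol, and had 24.1 and 24.8 TPM in control and 12.1, 11.4, and 11.3 TPM in the sorted replicates. Its distance between the lower control and the highest sorted library, 0.94 on the log2 scale, was the largest of the set, at ranges of 0.09 among the sorted libraries and 0.04 between the controls. *Cpt1a*, which admits fatty acids to the mitochondrion, had 34.5 and 32.8 TPM in HaCa4 control against 26.3, 21.4, and 22.1 TPM in HaCa4-sorted, and *Slc27a1*, a fatty acid transport protein, had control values of 49.7 and 44.7 TPM and sorted values of 41.3, 28.6, and 31.95 TPM. *Ckmt1*, the mitochondrial creatine kinase, had 35.3 and 38.7 TPM in control and 10.1, 25.7, and 23.8 TPM in the sorted replicates. Its sorted range was the widest of the set on the log2(TPM + 1) scale, and replicate 1 was far below the other sorted libraries. *Pdp1*, the phosphatase that activates pyruvate dehydrogenase, was lower by 47.4%. *Egln3*, an oxygen-sensing prolyl hydroxylase that marks HIF for degradation, had 67.95 and 81.7 TPM in HaCa4 control against 42.8, 38.7, and 55.2 TPM in HaCa4-sorted.

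Regulators of transcription, chromatin, and RNA numbered 10. *Nfe2l2* (chromosome 2 from 75675513 to 75704663) encodes NRF2, the activator of antioxidant and detoxification genes, and had control values of 289.7 and 305 TPM and sorted values of 209, 228, and 199.5 TPM. The sorted mean was lower by 28.6%, with an SD of 10.5 TPM in control and 14.6 TPM in HaCa4-sorted, and the thresholds were not passed. At an equal sum of listed genes, *Nfe2l2* was at 267 and 268 in control and 222, 261, and 203 in HaCa4-sorted. The log2 fold change was then -0.23. *Tcim* (chromosome 8 from 24437172 to 24438946), a small protein that enhances Wnt signalling, was at 56.7 and 50.5 TPM in control and 15.6, 26.8, and 18.7 TPM in the sorted replicates. It had the second most negative log2 fold change of the set, -1.39, standard error 0.24, and sorted replicate 1 was the lowest. *Sox15*, a SOX factor expressed in stratified epithelia, had 22.1 and 32.4 TPM in HaCa4 control against 9.54, 17.8, and 11.9 TPM in HaCa4-sorted, with wide ranges in both groups. *Scx*, the basic helix-loop-helix factor scleraxis, had control values of 17.6 and 14.7 TPM and sorted values of 8.30, 8.74, and 12.01 TPM. The immediate-early gene *Ier2* had 101 and 96.9 TPM in control and 69.7, 75.4, and 63.8 TPM in the sorted replicates, and *Arid5a*, which stabilises inflammatory mRNAs, had a control mean of 11.9 TPM and a sorted mean of 8.20 TPM. *Cirbp*, the cold-inducible RNA-binding protein, was at 40.4 and 39.6 TPM in HaCa4 control against 26.3, 19.7, and 22.4 TPM in HaCa4-sorted. The histone variant gene *H2afv*, the Polycomb gene *Phc2*, and *Ssbp4* were lower by 30.4%, 19.5%, and 26.7%. *Phc2* was one of the 3 genes with the narrowest sorted range, at 193 to 200.1 TPM against 241 and 244 TPM in control.

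Cytoskeletal genes included some of the most abundant genes of the set and the one with the smallest difference. *Tmsb4x*, thymosin beta-4, which keeps actin monomers in reserve, had control values of 2209 and 2085 TPM and sorted values of 1627, 1550.1, and 1739 TPM. *Pls3*, the actin-bundling protein plastin 3, had 312 and 288 TPM in control and 253, 241, and 257 TPM in the sorted replicates, the smallest difference of all 81 genes. *Rai14*, an actin-binding ankyrin-repeat protein, was lower by 26.0%. *Add2*, the beta subunit of adducin, which caps actin at the membrane, had 61.4 and 78.7 TPM in HaCa4 control against 40.98, 33.6, and 40.8 TPM in HaCa4-sorted. *Tnnt2*, the troponin T of heart muscle, had control values of 125 and 118 TPM and sorted values of 84.6, 52.9, and 88.1 TPM, with sorted replicate 2 apart from the other sorted libraries. *Palmd*, palmdelphin, had 9.71 and 12.3 TPM in control and 3.53, 4.27, and 5.46 TPM in the sorted replicates (log2 fold change -1.15, standard error 0.33), and the kelch protein *Klhl1* was of low abundance, with a control mean of 1.47 TPM and a sorted mean of 0.71 TPM.

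Channels and transporters comprised 5 genes. *Kcnn4* encodes the calcium-activated potassium channel of intermediate conductance, and had 133 and 173 TPM in HaCa4 control against 82.4, 90.4, and 91.4 TPM in HaCa4-sorted. The sorted libraries were close together, and the controls lay farther apart (log2 fold change -0.78, standard error 0.14). *Slc8a1*, the sodium-calcium exchanger, had control values of 6.62 and 8.14 TPM and sorted values of 2.56, 4.16, and 3.69 TPM. *Itprip*, which modulates calcium release through the inositol trisphosphate receptor, was lower by 28.1%. *Slc41a2*, a magnesium transporter, had 20.7 and 14.5 TPM in control and 14.3, 10.8, and 11.6 TPM in the sorted replicates. It was the gene just inside the rule, since its lower control and its highest sorted library were 0.02 apart on the log2 scale. The next ones inside were *Megf10* and *Aldh3a1*, at 0.08 and 0.10. The 1 gene with a lower mean that fell outside the rule was *Gm43305*, whose sorted replicates 1 and 2 exceeded the lower control of 85.7 TPM.

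**Figure D4:**
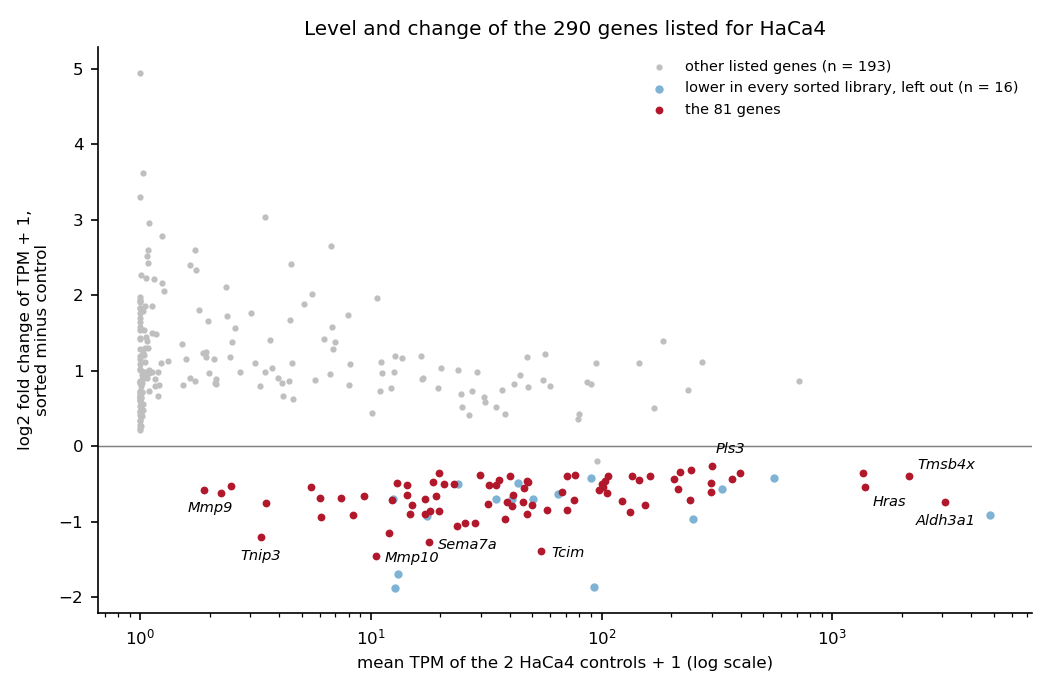
Log2 fold change of TPM + 1 between HaCa4-sorted and HaCa4 control (y axis) against the control mean of TPM + 1 on a log scale (x axis) for the 290 listed genes. The 81 genes (red) lie between -1.45 and -0.26 over the whole range of levels, and blue points are the 16 genes that met the rule on levels but were left out.

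Enzymes that modify proteins and glycans were represented by 4 genes. *Padi2* and *Padi4* encode peptidylarginine deiminases, which convert arginine of proteins such as keratins and histones to citrulline, and they lie 132097 bases apart on chromosome 4. *Padi2* had 20.8 and 24.5 TPM in HaCa4 control against 11.1, 11.1, and 8.99 TPM in HaCa4-sorted, and *Padi4* had control values of 94.1 and 111 TPM and sorted values of 65.8, 85.8, and 72.3 TPM. *Padi2* was the less abundant of the pair and was lower by 54.2%, *Padi4* by 27.2%. *Chst2*, a sulfotransferase of glycans, had 48.95 and 40.4 TPM in control and 25.9, 24.4, and 28.3 TPM in the sorted replicates, and the galactosyltransferase gene *B4galt1* was lower by 24.0%.

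Of inflammatory signalling, 3 genes were in the set. *Tnip3*, which encodes an A20-binding inhibitor of NF-κB, had 2.84 and 1.85 TPM in HaCa4 control against 0.60, 0.23, and 0.50 TPM in HaCa4-sorted. It was the gene with the largest proportional difference, the sorted mean being 18.9% of the control mean, at a level under 3 TPM in every library. *Tnfaip2*, a gene induced by TNF, had control values of 158 and 165 TPM and sorted values of 111, 126, and 133 TPM, and *Inava*, which acts in innate receptor signalling, was lower by 30.5%. The list of 52 cytokine, chemokine, and receptor genes had no member in the set. The promoter of *Tnip3* was the 1 promoter of the set with the NF-κB motif, and that of *Padi4* held an AP-1 motif without sharing the metalloprotease cluster, so both are shown with the motif in capitals. The windows are chr6:65590298-65590397 (plus strand) and chr4:140774240-140774303 (minus strand). The *Padi4* sequence ends where its first exon begins. A TATA box at base -31 lies beyond that end, so this promoter too holds AP-1 and TATA motifs.
Tnip3: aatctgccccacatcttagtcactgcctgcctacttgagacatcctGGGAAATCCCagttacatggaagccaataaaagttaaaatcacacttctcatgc
Padi4: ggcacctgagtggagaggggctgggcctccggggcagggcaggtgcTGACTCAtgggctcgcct

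The last 10 genes have other or unknown roles. *Oaf*, a secreted protein, had 253 and 340.0 TPM in control and 169, 206, and 201 TPM in the sorted replicates. The kinase gene *Nuak2* had 30.9 and 26.5 TPM in HaCa4 control against 21.9, 22.1, and 21.3 TPM in HaCa4-sorted, 1 of the 3 narrowest sorted ranges. *Tmem176b* and the phospholipid scramblase gene *Plscr1* were lower by 24.5% and 23.4%, and *2200002D01Rik* (control mean 396 TPM) by 21.8%. The predicted genes *Gm46894*, *Gm41476*, *Gm41035*, *Gm40378*, and *Gm39972* were lower by between 32.4% and 63.1%. The most abundant of them was *Gm46894*, with 122 and 142 TPM in control and 60.8, 75.5, and 78.4 TPM in HaCa4-sorted.

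Promoters were available for 61 of the 81 genes, 91 windows in all, each from 250 bases before to 50 after an annotated start. The AP-1 motif TGANTCA was found in 6.59% of them, with both strands searched. It was found in 14.65% of the windows of listed genes that were higher in every sorted library, and in 7.81% of all 32851 promoters of the same length. The 6 genes of the set with this motif were *Mmp10*, *Mmp1b*, *Padi4*, *Rtkn*, *Sema4d*, and *2200002D01Rik*. The GC box GGGCGG was present in 55.0% of the windows of the set, in 47.1% of those of listed genes that were higher in every sorted library, and in 35.7% of all promoters. The E box CACGTG was present in 10.99%, 5.73%, and 7.15%, the TEAD motif GGAATG in 18.7%, 16.6%, and 14.7%, and the TATA box TATAAA in 8.79%, 12.1%, and 13.6% in the same order. For CRE (TGACGTCA) the shares were 2.20%, 0.64%, and 1.79%, for the NF-κB motif 1.10%, 1.91%, and 1.20%, and for the STAT motif TTCNNNGAA 5.49%, 6.37%, and 8.30%. Windows of a gene with several starts can overlap. These shares describe letters in a window and were not tested.

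**Figure D5:**
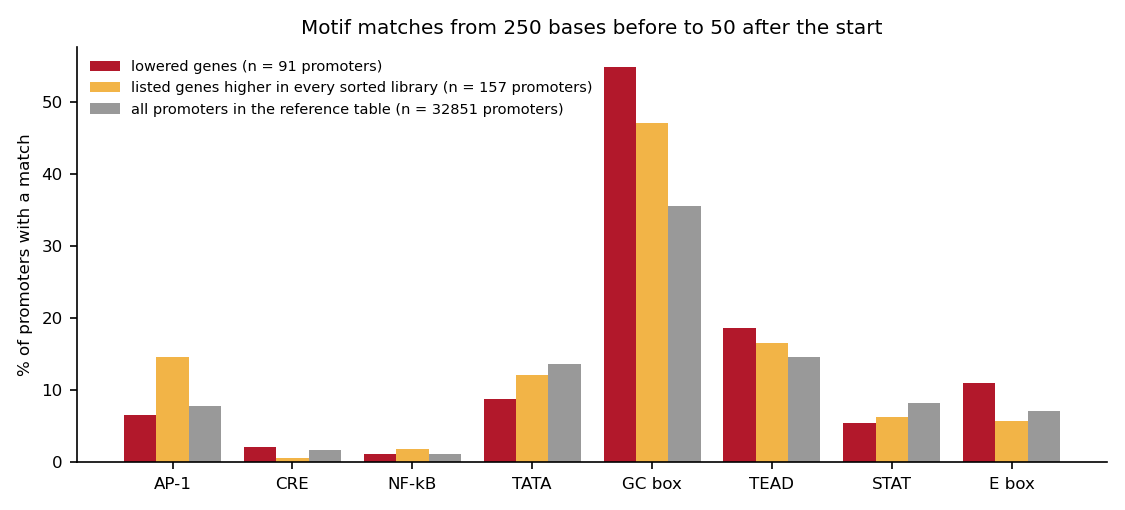
Percent of promoter windows (y axis, from 0) with a match to each of 8 motifs (x axis), for the 91 windows of the genes lower after co-culture (red), the 157 windows of listed genes higher in every sorted library (yellow), and all 32851 windows (grey). The GC box has the highest shares, at 55.0%, 47.1%, and 35.7%, and the AP-1 shares are 6.59%, 14.6%, and 7.81%.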

How the data were processed

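RNA was sequenced from 11 libraries, of which 5 are HaCa4. Per the labels and the study's methods, the authors cleaned reads with SOAPnuke and aligned them to GRCm38.p6 with HISAT (HISAT2 2.0.4 in the submitters' processing notes, which also name DESeq2). The deposited values are TPM per gene for listed genes only, so the depth is unknown and no counting error can be given. The tool that computed TPM and the use of strand in counting are not given in the sources used here.

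Groups followed the labels. The second control is replicate 2 by its title, which was followed, while the number in its file is 3. TPM was tested as log2(TPM + 1), a scale that understates differences of low genes, with limma 3.58.1 in R 4.3.3 (empirical Bayes with trend, Benjamini-Hochberg adjustment over the 290 listed genes). Calls needed a log2 fold change of 0.5 or more in size and an adjusted p no higher than 0.05. The fit was tested on simulated data. Fold changes are HaCa4-sorted minus HaCa4 control.

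The members, gene lists, and roles were chosen with earlier results of these data known. Genes named by rule were the 8 with the most negative log2 fold change, the 8 most abundant, those on the gene lists, those nearest to the edge of the rule, and the 3 widest and 3 narrowest in HaCa4-sorted. The other genes were named to account for the members, of which 1 is counted but not reported here by name. Promoters and coordinates were taken from RefSeq (GRCm38.p6) and transcripts from GENCODE. Alternatives changed the pseudocount, filter, scaling, trend, block, threshold, and libraries.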

Additional observations from a re-analysis of the deposited data

How the results depend on the processing

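All 81 genes kept a negative log2 fold change under every alternative in which they were tested, and no named gene changed direction. Only scaling to the same sum could have changed that sign, since the rule that chose the genes fixes it in the others. Against 32 members and 41 listed genes past the thresholds and a median of -0.61, a pseudocount of 5 gave 18, 22, and -0.49, and one of 0.1 a median of -0.70. A mean TPM of at least 10 gave a median of -0.57. Scaling to the same median gave 77, 94, and -1.42, and took the median of all listed genes from 0.74 to 0.24. Scaling to the same sum, chosen after seeing the data, gave 8, 11, and -0.41. A log2 threshold of 1 gave 7 and 10, and limma without the trend 0 and 0. With the replicate number as a block the counts were 38 and 49 and the median -0.60, and sorted replicate 3, which has no partner, then carries no weight. The file of the second control carries the number 3, not 2. A block by that number, added after seeing the data, leaves sorted replicate 2 without weight and gave 5, 8, and -0.60. The block values thus depend on which number is right, the numbers are shared by only 2 pairs, and nothing says that they mark a common culture or day. Leaving out 1 library at a time gave 0 to 38 members, 0 to 48 listed genes, and medians from -0.62 to -0.56. The lowest counts came without control replicate 2 or sorted replicate 3, and the cause was not tested. Without a control replicate, the lone control is assumed to vary like the sorted libraries. The depth is unknown, so its effect on low genes could not be assessed.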

Other observations

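Several of the genes lower after co-culture are near one another in the genome, and such pairs were not counted among other genes. Besides the metalloprotease and *Padi* pairs, *Arhgap45* and *Cirbp* lie 134519 bases apart on chromosome 10, *Il12rb1* and *Ssbp4* 199973 bases apart on chromosome 8, and *Inava* and *Tnnt2* 361254 bases apart on chromosome 1. The median transcript of the set had 3474 bases and a GC content of 51.4%, against 3498 bases and 50.6% over all listed genes. Of the genes with a transcript, exons overlap another gene in 25 of 76 in the set and in 84 of 281 over all listed genes. The overlap is on the opposite strand in 23 and 69.

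Among gene lists with no gene in the set, 17 of 22 interferon response genes were listed for HaCa4, all with higher means in HaCa4-sorted, and 6 of them passed the thresholds. Of the 52 cytokine, chemokine, and receptor genes, 10 were listed, 2 of which passed as lower and 3 as higher. Of 42 adhesion and cytoskeleton genes 5 were listed, 2 past the thresholds as lower and 3 as higher. No gene of the cell cycle list (32 genes) or the leukocyte list (16 genes) was listed, and of 14 fibroblast genes only *Thy1* was. A gene that was not listed has no value here, so this does not tell whether it was expressed.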
